A study of Homo sapiens with 6 samples.

Results

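SCD and 9 further genes of fatty acid synthesis were followed in SW872, an established human liposarcoma cell line, by RNA sequencing. The 3 Apatinib replicates had received the drug at 18 μM during 24 h, and the 3 control replicates were left untreated. Apatinib is a tyrosine kinase inhibitor directed at VEGFR2. Both groups were the same unmodified line grown in RPMI-1640 with 10% FBS, so that they differed by the drug alone as far as the labels tell, and no vehicle is named for the control. The 10 genes, matched by symbol among 57773 genes of the deposited count table, were SCD, FASN, ACACA, ACLY, FADS1, FADS2, ELOVL5, ELOVL6, SREBF1 and ME1. They were chosen from the same Apatinib and control values that are given here, so their differences are a description and carry no test.

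Cells build fatty acids from cytosolic acetyl-CoA. ACLY makes acetyl-CoA from citrate, ACACA carboxylates it to malonyl-CoA, and FASN joins these units into palmitate with NADPH that ME1 helps to supply. Elongases (ELOVL5, ELOVL6) lengthen fatty acids, and desaturases insert double bonds: SCD makes monounsaturated oleate and palmitoleate, while FADS1 and FADS2 act on polyunsaturated chains. SREBF1 encodes the transcription factor SREBP-1, which is held in the endoplasmic reticulum membrane until it is cleaved and which activates many of these genes. Liposarcoma is a tumour of adipocyte lineage, a tissue in which this pathway is prominent.

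All 10 genes passed the filter on low counts. Levels are given as CPM (each library's counts scaled by TMM to a common total) with the SD of 3 replicates, and a log2 fold change above 0 means more transcript with Apatinib. SCD had the widest difference of the 10, 4.36-fold, and ELOVL6 was at 0.904 of its control level. A gene was called where edgeR's quasi-likelihood test gave an FDR (Benjamini-Hochberg, over 16290 genes) under 0.05 and the log2 fold change was larger than 0.5 in either direction. Of all genes tested, 11.5% were called, 5.97% as higher and 5.48% as lower with Apatinib. Of the 10, 7 were called, all as higher (SCD, FASN, SREBF1, ACACA, FADS2, FADS1 and ME1). Nothing is read from that count, because the genes were picked on this contrast. Every Apatinib replicate lay above every control replicate in 8 of the 10, where 17.5% of all genes tested had that order. The median log2 fold change was 0.74 over the 10 genes and 0.0028 over all genes tested. These are levels in bulk RNA, in which fewer cells of a kind and less RNA per cell cannot be told apart.

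**Figure D1:**
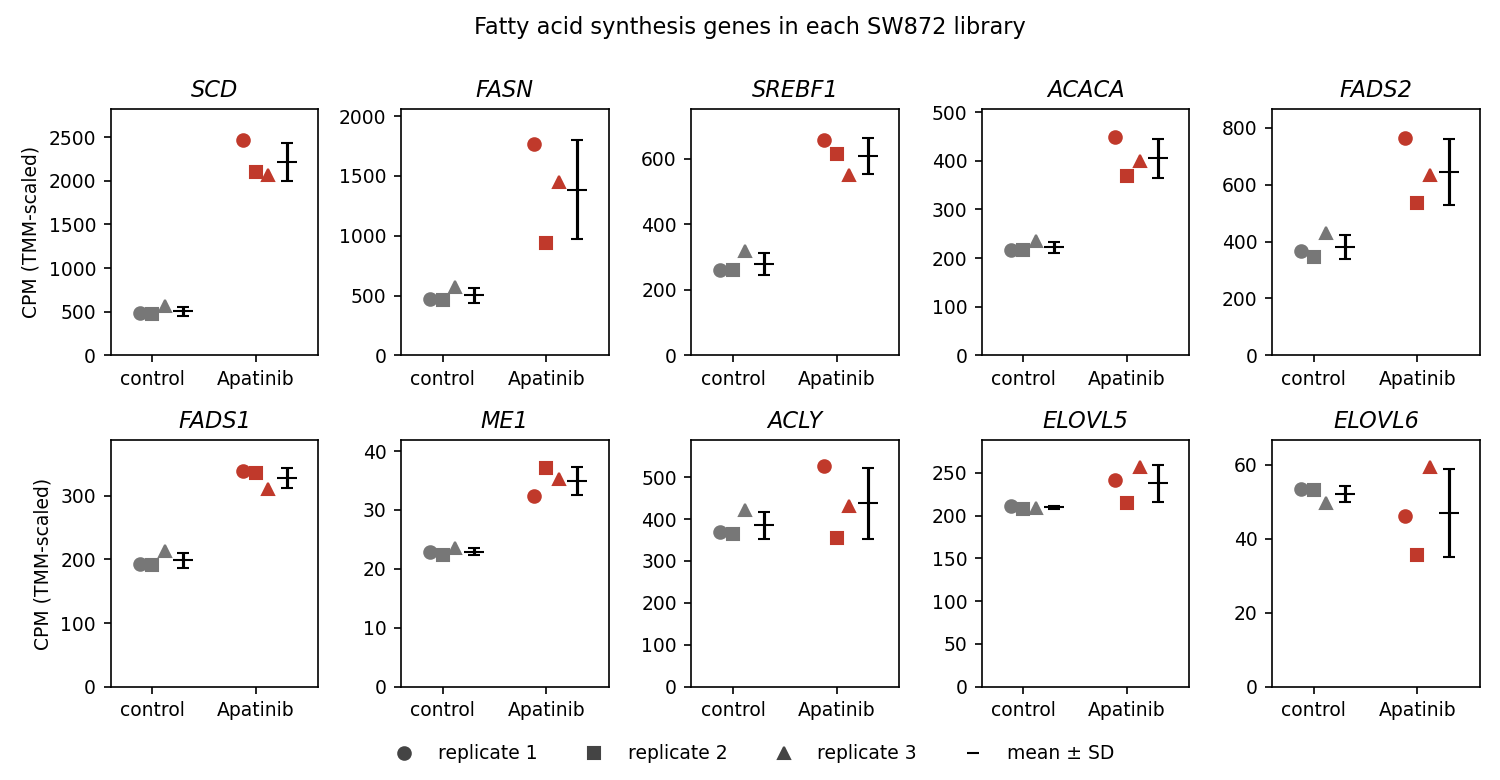
CPM of the 10 genes in each library, with 1 panel per gene, control replicates in grey, Apatinib replicates in red, and the mean ± SD of each group beside them. The Apatinib points lie above all control points in 8 panels, and the groups overlap in ACLY and ELOVL6.

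Total counts were between 17043314 and 22067558 per library. Control replicates 1 and 2 resembled each other far more closely than any other pair within a group. Their chi-square was 2.27 per gene on average against 18.2 to 44.5 (sampling noise alone gives 1). Pairs across the groups were at 26.5 to 78.4, so some of them were closer than Apatinib replicates 1 and 2, at 44.5. Control replicates 1 and 2 were kept as separate samples. Whether they came from separate cultures was not tested. If they are repeats of 1 culture, the SD and SE over 3 controls understate the spread, and the FDR values are too small. Leaving out control replicate 1 or 2 took the genes called from 1866 to 275 or 300, and this touches the counts below. Without either of them, and with both summed, FADS2 and ME1 were no longer called, which left 5 of the 10, where 1.65%, 1.8% and 1.75% of all genes were called. Most defining genes of mature adipocytes were at or near 0 although the line is labelled liposarcoma. ADIPOQ and FABP4 had 0 counts in every library, and CIDEC and LEP had 10 or fewer. CEBPA also had 0 counts, but the FPKM values list it at a mean of 0.149 with Apatinib and 0.107 in the control, so its count of 0 is uncertain. PLIN1 (14 to 30 counts) and LIPE (73 to 164 counts) were detected at low levels, and the 8 adipocyte markers together summed to 22.3 to 29.6 FPKM with Apatinib and 21.7 to 24.0 in the control. PPARG, the adipocyte transcription factor, was at 50.0, 64.2 and 51.5 CPM with Apatinib and at 51.0, 50.2 and 52.0 CPM in the control. The 8 mesenchymal markers, among them VIM and FN1, summed to 1857 to 2036 FPKM with Apatinib and 1465 to 1576 in the control, and 1 of the 8 was called, COL3A1 (log2 fold change 1.18, edgeR FDR = 0.00955). Epithelial markers summed to 0.706 to 1.59 against 1.06 to 1.72 FPKM, with EPCAM and CDH1 at 10 counts or fewer in every library. Endothelial markers summed to 2.06 to 2.69 against 2.03 to 2.45 FPKM, and leukocyte markers to 0.996 to 1.53 against 1.77 to 1.98 FPKM with PTPRC and LYZ at 0. Of the tested markers, 1 of 2 epithelial genes (ESRP1, log2 fold change 1.47) and 2 of 3 endothelial genes (VWF at 1.52 and CDH5 at -1.22) were called, against 11.5% of all genes, each at under 4 CPM. The part of the mesenchymal difference in the values below was not tested.

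SCD (ENSG00000099194), the stearoyl-CoA desaturase that makes oleate, was at 2463, 2098 and 2071 CPM with Apatinib and at 485, 471 and 567 CPM in the control. Its lowest Apatinib value was well above its highest control value. The means were 2211 ± 219 and 508 ± 51.6 CPM (SD over 3 replicates), and the log2 fold change was 2.12 ± 0.137 (SE). Leaving out single replicates moved that estimate between 2.04, without Apatinib replicate 1, and 2.21, without control replicate 3. The transcript took 0.234%, 0.215% and 0.209% of all counts in the Apatinib libraries and 0.0493%, 0.0472% and 0.0561% in the control libraries. SCD therefore stood 20th, 19th and 21st by counts in the treated libraries and 217th, 239th and 187th in the untreated ones. Reads of its processed pseudogene SCDP1 numbered between 1 and 6 per library.

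The other desaturases were higher with Apatinib by less. FADS1 (ENSG00000149485), the delta-5 desaturase, was at 339, 335 and 311 CPM with Apatinib and at 192, 191 and 212 CPM without it (log2 fold change 0.73 ± 0.114 SE). FADS2 (ENSG00000134824), the delta-6 desaturase, was at 765, 535 and 633 CPM with Apatinib and at 366, 347 and 429 CPM without it (log2 fold change 0.76 ± 0.151 SE). The groups did not overlap in either gene, but the Apatinib replicates of FADS2 were more spread, with an SD of 115 CPM around 645 against 15.5 around 328 for FADS1. FADS1 and FADS2 lie beside each other and share 490 bases of exon on opposite strands, 4.79% of the exon bases of FADS1 and 4.44% of those of FADS2. Whether the counting used strand is not given in the sources used here, so reads from these bases cannot be assigned to 1 of the genes. FADS2 also shares 49 exon bases with FEN1, a nuclease of DNA replication, which was lower with Apatinib (log2 fold change -0.82, edgeR FDR = 0.0432).

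FASN (ENSG00000169710), the fatty acid synthase, was at 1767, 941 and 1450 CPM with Apatinib and at 468, 463 and 573 CPM in the control. All Apatinib values were above all control values, though replicate 2 stood well under the other two. The means were 1386 ± 416 and 501 ± 61.9 CPM (SD over 3 replicates), and the log2 fold change was 1.47 ± 0.203 (SE), with the widest error of the 10 genes. Without Apatinib replicate 1 the estimate was 1.26, and without replicate 2 of that group it was 1.68. ACACA (ENSG00000132142), acetyl-CoA carboxylase 1, was at 448, 369 and 399 CPM with Apatinib and at 216, 216 and 236 CPM in the control. Its means were 405 ± 40.0 and 222 ± 11.3 CPM without overlap, and its log2 fold change was 0.87 ± 0.121 (SE).

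ACLY (ENSG00000131473), the citrate lyase one step before ACACA, was at 526, 355 and 430 CPM with Apatinib and at 368, 365 and 422 CPM in the control. The groups overlapped, with Apatinib replicate 2 under every control. The means were 437 ± 85.4 and 385 ± 31.7 CPM, and the log2 fold change of 0.18 ± 0.15 (SE) became 0.03 without Apatinib replicate 1 and 0.32 without Apatinib replicate 2. ME1 (ENSG00000065833), the cytosolic malic enzyme, was at 32.3, 37.1 and 35.2 CPM with Apatinib and at 22.8, 22.4 and 23.6 CPM in the control. It was the least abundant of the 10 in the control, and its groups were apart with a log2 fold change of 0.61 ± 0.125 (SE).

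The elongases were not called. ELOVL5 (ENSG00000012660), which extends polyunsaturated fatty acids, was at 242, 214 and 257 CPM with Apatinib and at 211, 208 and 209 CPM in the control. Its groups were apart by a narrow margin, and the log2 fold change was 0.18 ± 0.116 (SE), under the limit for a call. ELOVL6 (ENSG00000170522), which extends palmitate to stearate and so makes the main substrate of SCD, was at 46.2, 35.6 and 59.4 CPM with Apatinib and at 53.5, 53.1 and 49.7 CPM in the control. Apatinib replicates lay on both sides of the controls, and the log2 fold change of -0.15 ± 0.169 (SE) became 0.03 without Apatinib replicate 2 and 0.04 after a correction for GC content.

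SREBF1 (ENSG00000072310), the regulator, was at 658, 615 and 551 CPM with Apatinib and at 259.8, 260.0 and 318 CPM in the control. The groups did not overlap, and the means of 608 ± 53.7 and 279 ± 33.7 CPM gave a log2 fold change of 1.12 ± 0.132 (SE). SREBF1 shares 556 exon bases, 6.92% of its total, with RAI1 on the opposite strand. RAI1 was at 168, 157 and 140 CPM with Apatinib and at 157, 161 and 174 CPM in the control (log2 fold change -0.08, edgeR FDR = 0.683). Transcript levels say nothing of the cleavage of SREBP-1, which was not measured here.

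**Figure D2:**
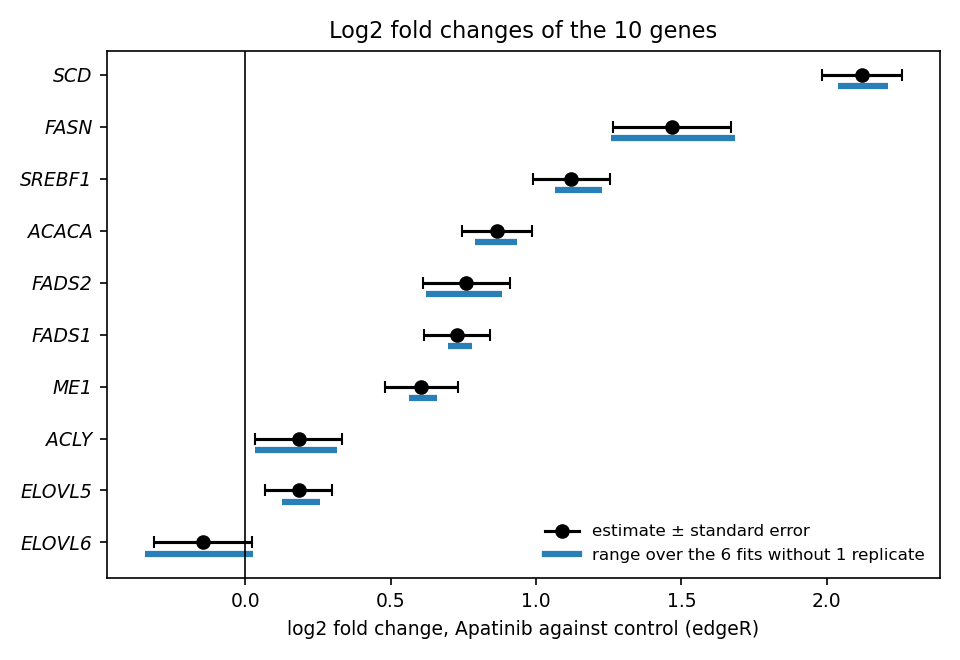
Log2 fold change of the 10 genes, Apatinib against control, as points with bars of 1 SE from edgeR, and in blue the range over the 6 fits that each leave out 1 replicate. SCD stands highest at 2.12 and ELOVL6 lowest at -0.15, the only gene whose blue range crosses 0.

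A correction for GC content, added after the data were seen, moved several of the 10 estimates. FASN went from 1.47 to 1.20, SREBF1 from 1.12 to 0.91, FADS2 from 0.76 to 0.58, FADS1 from 0.73 to 0.64, ACLY from 0.18 to 0.08, ELOVL5 from 0.18 to 0.35 and ME1 from 0.61 to 0.86, while SCD was at 2.09. ACACA was not in that fit, because its identifier had no GC value. Within the Apatinib group, replicate 1 was highest in 7 of the 10 genes and replicate 2 lowest in 6. Among the controls, replicate 3 was highest in 8.

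Levels of different genes were compared as FPKM (fragments scaled to transcript length and to the mapped fragments of the library), which accounts for length. In the control, SCD led at 112 ± 8.98 FPKM, followed by FADS2 at 86.7 ± 10.6 and ACLY at 61.7 ± 3.57 FPKM. ELOVL5 (53.1 ± 1.86 FPKM) and SREBF1 (51.8 ± 4.67 FPKM) came next and overlapped each other. FASN (41.5 ± 3.93), FADS1 (35.0 ± 1.12), ACACA (17.7 ± 0.119), ELOVL6 (7.80 ± 0.758) and ME1 (4.79 ± 0.145 FPKM) followed without overlap between neighbours.

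With Apatinib, SCD led at 495 ± 32.5 FPKM and FADS2 was again next at 155 ± 18.6 FPKM. FASN at 115 ± 30.7 FPKM had a mean above those of SREBF1, ACLY and ELOVL5 and overlapped FADS2, SREBF1 (111 ± 4.71 FPKM) and ACLY. ACLY (70.8 ± 11.5), ELOVL5 (60.5 ± 4.35) and FADS1 (57.5 ± 3.67 FPKM) overlapped along the order, as did ME1 (7.70 ± 0.954) and ELOVL6 (6.97 ± 1.64 FPKM) at its end, with ACACA (31.2 ± 1.86 FPKM) between the sets. The place of SCD at the head of the order was thus common to both groups.

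**Figure D3:**
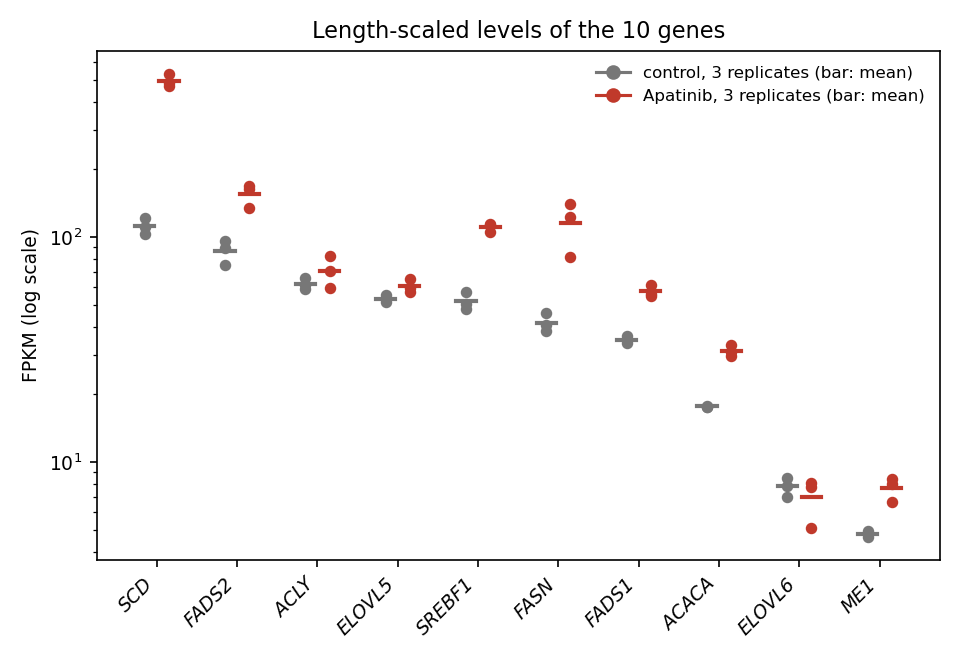
FPKM of the 10 genes on a log axis, points for the 3 control and 3 Apatinib libraries. SCD is the highest gene in both groups, at 112 FPKM in the control and 495 FPKM with Apatinib, and ELOVL6 and ME1 are the lowest.

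The balance between the genes was described by ratios of FPKM within a library. SCD to FASN was 3.77, 5.95 and 3.83 in the Apatinib libraries against 2.74, 2.72 and 2.65 in the controls. SCD to ELOVL5 was 8.98, 8.48 and 7.18 against 2.02, 1.96 and 2.37. Both ratios were higher in every Apatinib library, so SCD gained on the synthase and on the elongase. FASN to ACLY was 1.71, 1.37 and 1.74 against 0.665, 0.651 and 0.698, so the order of these 2 genes was inverted. FADS2 to FADS1, in contrast, was 3.01, 2.18 and 2.98 against 2.57, 2.21 and 2.64, with overlap. The 10 genes together took 0.693%, 0.568% and 0.624% of all counts in treated cells and 0.269%, 0.260% and 0.301% in untreated cells. SCD alone gave 33.8%, 37.9% and 33.4% of these counts in treated and 18.4%, 18.1% and 18.7% in untreated cells.

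**Figure D4:**
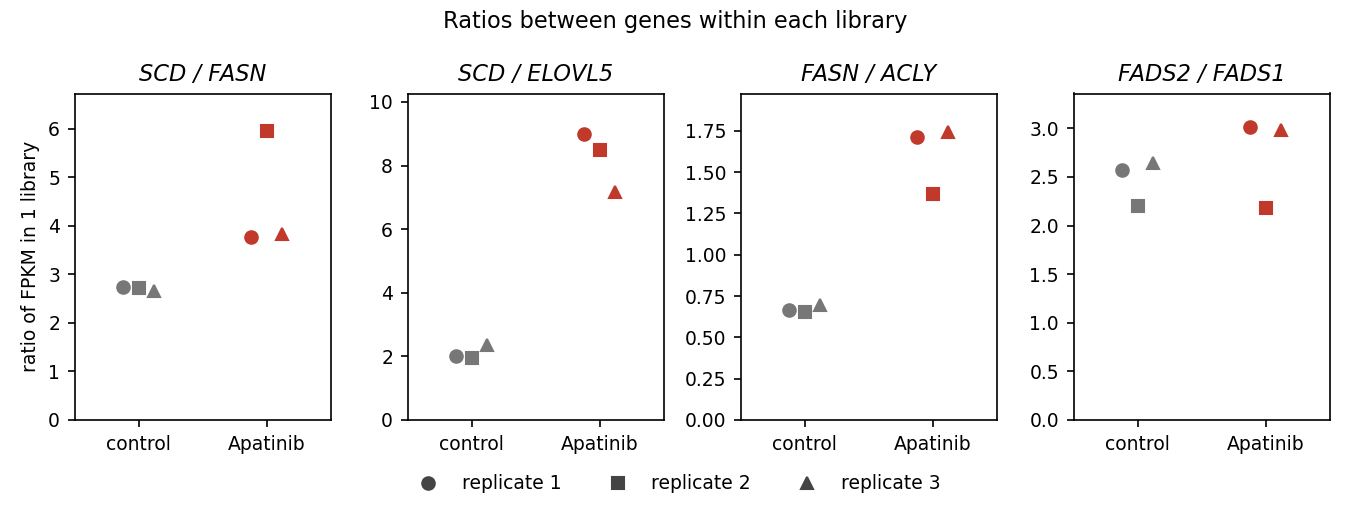
Ratio of FPKM between pairs of genes in each library, with 1 point per library. The Apatinib and control points are apart for SCD to FASN, SCD to ELOVL5 and FASN to ACLY, and they overlap for FADS2 to FADS1.

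Over the 6 libraries, the genes whose log2 CPM followed that of SCD most closely by Pearson's r were SLC2A10 (0.9995), RPL13AP5 (0.999), RAB7L1 (0.996), EEPD1 (0.996) and KIF17 (0.996). SLC2A10, a glucose transporter family member, was at 69.9, 67.8 and 67.5 CPM with Apatinib and at 47.5, 47.5 and 48.8 CPM in the control. RPL13AP5 is a ribosomal protein pseudogene with near-identical copies, so its counts are uncertain. The 6 points fall into the treated and untreated groups, and a gap between groups alone makes r high. Among the 10 genes, r to SCD was 0.995 for FADS1, 0.992 for ACACA and SREBF1, 0.967 for ME1, 0.951 for FASN, 0.941 for FADS2, 0.761 for ELOVL5, 0.507 for ACLY and -0.391 for ELOVL6.

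Promoter sequence was taken from RefSeq for GRCh38.p14 as the 250 bases before each start, and 13 such windows matched 9 of the 10 genes. FASN was not matched. The windows of the desaturase with the widest difference (SCD), of the regulator (SREBF1), of a desaturase with a smaller difference (FADS1) and of the elongase that was not higher (ELOVL6) are printed 5′ to 3′ on the strand of the gene. Capitals mark each CCAAT or GGGCGG, or their reverse complements ATTGG and CCGCCC. The windows are chr10:100346983-100347232 on the plus strand for SCD, and chr17:17836987-17837236, chr11:61817004-61817253 and chr4:110198616-110198865 on the minus strand for SREBF1, FADS1 and ELOVL6.
SCD: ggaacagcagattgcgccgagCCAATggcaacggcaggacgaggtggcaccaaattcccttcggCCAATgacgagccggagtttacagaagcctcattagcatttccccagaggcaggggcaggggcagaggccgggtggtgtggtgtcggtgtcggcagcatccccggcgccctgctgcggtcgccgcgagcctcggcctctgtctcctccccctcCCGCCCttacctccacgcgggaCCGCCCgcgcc
SREBF1: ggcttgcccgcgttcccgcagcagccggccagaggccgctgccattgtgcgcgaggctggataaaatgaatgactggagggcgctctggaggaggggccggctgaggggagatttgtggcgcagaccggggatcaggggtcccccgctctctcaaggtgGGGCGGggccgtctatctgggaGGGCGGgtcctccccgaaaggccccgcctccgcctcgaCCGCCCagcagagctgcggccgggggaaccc
FADS1: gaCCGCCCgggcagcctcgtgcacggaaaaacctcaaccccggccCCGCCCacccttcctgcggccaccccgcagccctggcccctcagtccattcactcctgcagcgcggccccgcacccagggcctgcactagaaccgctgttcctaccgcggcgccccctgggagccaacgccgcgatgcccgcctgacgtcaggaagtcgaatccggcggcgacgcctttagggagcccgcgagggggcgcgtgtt
ELOVL6: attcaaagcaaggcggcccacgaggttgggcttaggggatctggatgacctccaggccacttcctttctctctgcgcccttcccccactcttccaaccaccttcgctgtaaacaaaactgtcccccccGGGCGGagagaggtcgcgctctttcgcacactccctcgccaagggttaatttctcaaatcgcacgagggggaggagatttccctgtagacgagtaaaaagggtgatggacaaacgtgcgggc

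SCD held CCAAT, the box bound by NF-Y, at 229 and 186 bases before its start, and CCGCCC, the GC box bound by SP1, at 33 and 11 bases before it. SREBF1 held 3 GC boxes, FADS1 held 2 and ELOVL6 held 1, and none of these 3 windows held CCAAT. Searched on both strands, CCAAT was in 6 of the 13 windows (in 4 of 9 genes) and in 32.0% of 35116 RefSeq promoters of the same length. GGGCGG was in 10 of 13 windows (in 8 of 9 genes) and in 42.6% of all promoters. Some genes have more than 1 window, and those of ACLY overlap, so the windows are not independent. Their GC content was 43.6% to 81.6%, and promoters of like GC content were not compared. CACGTG, the E-box, was in 1 window, that of ELOVL5, and in 6.34% of all promoters. TCACNCCAC, a form of the sterol regulatory element, was in 0 of the 13 windows and in 0.883% of all promoters. It was also in 0 of 21 promoters of the sterol genes. With so rare a match, its absence from 13 windows carries no information. Repeated GC boxes can overlap one another, as can CACGTG and TCACNCCAC, and a match in letters is a description and not a binding site.

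The 5 lists of related genes that follow were also chosen with earlier results of these data known, so their shares are a description. Of 31 other genes of fatty acid synthesis, 26 were tested. Of these, 3 were called higher and none lower (3 of 26, or 11.5%, the share in all genes tested), with a median log2 fold change of 0.15. Leaving out single replicates moved that median between 0.085, without Apatinib replicate 1, and 0.2, without Apatinib replicate 2. ACSS2, which makes acetyl-CoA from acetate, was at 164, 142 and 152 CPM with Apatinib and at 102, 97.4 and 114 CPM in the control (log2 fold change 0.55 ± 0.12 SE, edgeR FDR = 0.0175). MID1IP1, an activator of acetyl-CoA carboxylase, was at 78.4, 104 and 57.4 CPM against 38.6, 38.7 and 43.5 CPM (0.99 ± 0.187 SE, edgeR FDR = 0.0107). FADS3, a desaturase relative of FADS1 and FADS2, was at 90.0, 75.8 and 80.8 CPM against 49.2, 46.5 and 50.9 CPM (0.75 ± 0.121 SE, edgeR FDR = 0.00613). FADS3 was called under every alternative, and ACSS2 fell under the limit after the GC correction (0.42). IDH1, which makes NADPH in the cytosol and was named after its values were seen, was at 441, 490 and 462 CPM against 359, 347 and 352 CPM (0.40 ± 0.111 SE, edgeR FDR = 0.0398), under the limit on the fold change. Without control replicate 1 or without control replicate 2, 1 gene of the list was called (against 1.65% and 1.8% of all genes), and without Apatinib replicate 2, 5 were (against 8.91% of all genes).

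Genes of acyl-CoA synthesis and fatty acid uptake numbered 17, of which 13 were tested. Of these, 3 were called higher and none lower (23.1%, against 11.5% of all genes tested), with a median of 0.08. LPL, lipoprotein lipase, was at 14.3, 23.5 and 17.1 CPM with Apatinib and at 11.3, 10.9 and 8.57 CPM in the control (0.84 ± 0.201 SE, edgeR FDR = 0.0237). SLC27A1, a fatty acid transporter, was at 54.9, 53.7 and 46.4 CPM against 34.8, 32.7 and 35.6 CPM (0.59 ± 0.124 SE, edgeR FDR = 0.0151). SLC27A5, a relative with acyl-CoA ligase activity, was at 3.67, 2.65 and 2.40 CPM against 1.67, 1.27 and 1.56 CPM (0.95 ± 0.27 SE, edgeR FDR = 0.0412). Without control replicate 1 or 2 edgeR called 0 of these and 1.65% or 1.8% of all genes, with 3 of the list at an unadjusted p under 0.05. On all libraries DESeq2 called 2 of them and 6.3% of all genes, without SLC27A5 (FDR = 0.0577), and limma called SLC27A1 alone. After the GC correction SLC27A1 was at 0.40, under the limit, and SLC27A5 had an FDR of 0.0518 in edgeR.

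Genes that control SREBP and lipogenesis numbered 23, of which 22 were tested. Of these, 6 were called higher and none lower (27.3%, against 11.5% of all genes tested, and a median of 0.17). Called or not, 17 of the 22 had a log2 fold change above 0 and 5 had one below 0. SREBF2, which encodes the sterol-directed SREBP-2, was at 388, 295 and 330 CPM with Apatinib and at 215, 205 and 255 CPM in the control (0.59 ± 0.139 SE, edgeR FDR = 0.0233). INSIG1, which retains SREBP in the endoplasmic reticulum, was at 307, 156 and 306 CPM against 119, 124 and 142 CPM (1.0 ± 0.219 SE, edgeR FDR = 0.0173). NR1H3, the nuclear receptor LXRα, which can activate SREBF1, was at 56.8, 55.9 and 48.1 CPM against 30.8, 31.2 and 37.9 CPM (0.69 ± 0.135 SE, edgeR FDR = 0.0119). MLXIPL, the glucose-responsive factor ChREBP, was at 11.1, 13.7 and 10.6 CPM against 6.003, 6.38 and 7.05 CPM (0.86 ± 0.172 SE, edgeR FDR = 0.0128).

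PRKAG2, a gamma subunit of AMPK, the kinase that inhibits acetyl-CoA carboxylase, was at 37.1, 39.0 and 41.6 CPM with Apatinib and at 22.5, 26.1 and 20.5 CPM in the control (0.77 ± 0.136 SE, edgeR FDR = 0.00845). The catalytic subunit PRKAA1, named after its values were seen, was at 136, 174 and 173 CPM against 263, 258 and 178 CPM, and its log2 fold change of -0.53 ± 0.166 (SE) did not pass (edgeR FDR = 0.0555). It passed as lower with DESeq2 (FDR = 0.0187), without a filter on low counts (edgeR FDR = 0.00751), with the replicate block (edgeR FDR = 0.0398) and without control replicate 3 (edgeR FDR = 0.00813), while the GC correction took it to -0.11. TRIB3, a stress-induced pseudokinase, was at 274, 699 and 190 CPM against 145, 155 and 99.6 CPM (1.54 ± 0.38 SE, edgeR FDR = 0.0268), and without Apatinib replicate 2 its log2 fold change was 0.81. Without control replicate 1 edgeR called 0 genes of the control list, with 7 at an unadjusted p under 0.05 and 1.65% of all genes called, and without control replicate 2 it called 1, against 1.8% of all genes. DESeq2 on all libraries called 6 (and 6.3% of all genes), of which 5 were higher, without TRIB3 (FDR = 0.0618) and with PRKAA1. TRIB3 was not called by limma on either scale (FDR = 0.0856 and 0.0873) or after the GC correction (edgeR FDR = 0.0594), and MLXIPL was not called by limma (FDR = 0.0531 on both scales). The GC correction took SREBF2 to 0.43, under the limit.

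Sterol genes share the SREBP pathway, and of 23 tested, 4 were called higher and none lower (17.4%, against 11.5% of all genes tested, and a median of 0.23). Leaving out single replicates moved that median between 0.132, without Apatinib replicate 1, and 0.373, without Apatinib replicate 2. DHCR7, a reductase of late sterol synthesis, was at 174, 125 and 142 CPM with Apatinib and at 82.6, 90.4 and 102 CPM in the control (log2 fold change 0.68 ± 0.146 SE, edgeR FDR = 0.0158). TM7SF2, a sterol reductase of the same branch, had a log2 fold change of 0.80 ± 0.164 SE (edgeR FDR = 0.0139). Both calls were lost without control replicate 1 and without control replicate 2. Of the sterol genes, 2 were called without control replicate 1 or 2, where 1.65% or 1.8% of all genes were, and 8 without Apatinib replicate 2, where 8.91% of all genes were.

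Fatty acid oxidation, the opposing pathway, had 1 of 24 tested genes called, higher (4.17%, against 11.5% of all genes tested), with a median of 0.05. Leaving out single replicates moved that median between -0.041, without Apatinib replicate 1, and 0.096, without Apatinib replicate 2, so its sign was not stable. That gene was CPT1C, a brain-type carnitine palmitoyltransferase relative, at 9.60, 5.65 and 7.96 CPM with Apatinib and at 4.16, 3.30 and 4.76 CPM in the control (0.92 ± 0.234 SE, edgeR FDR = 0.0296). ECI1, an enoyl-CoA isomerase, had 0.46 ± 0.135 SE (edgeR FDR = 0.0457), under the limit on the fold change, and PPARA, the fatty acid-sensing nuclear receptor, had 0.36 ± 0.128 SE (edgeR FDR = 0.0877). Without control replicate 1, control replicate 2 or Apatinib replicate 1 edgeR called 0 of these genes, with 2 to 3 at an unadjusted p under 0.05, and 1.65%, 1.8% and 4.73% of all genes. Without control replicate 3 it called 3, of which 2 were higher, against 15.5% of all genes, and DESeq2 on all libraries called 1, against 6.3% of all genes.

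**Figure D5:**
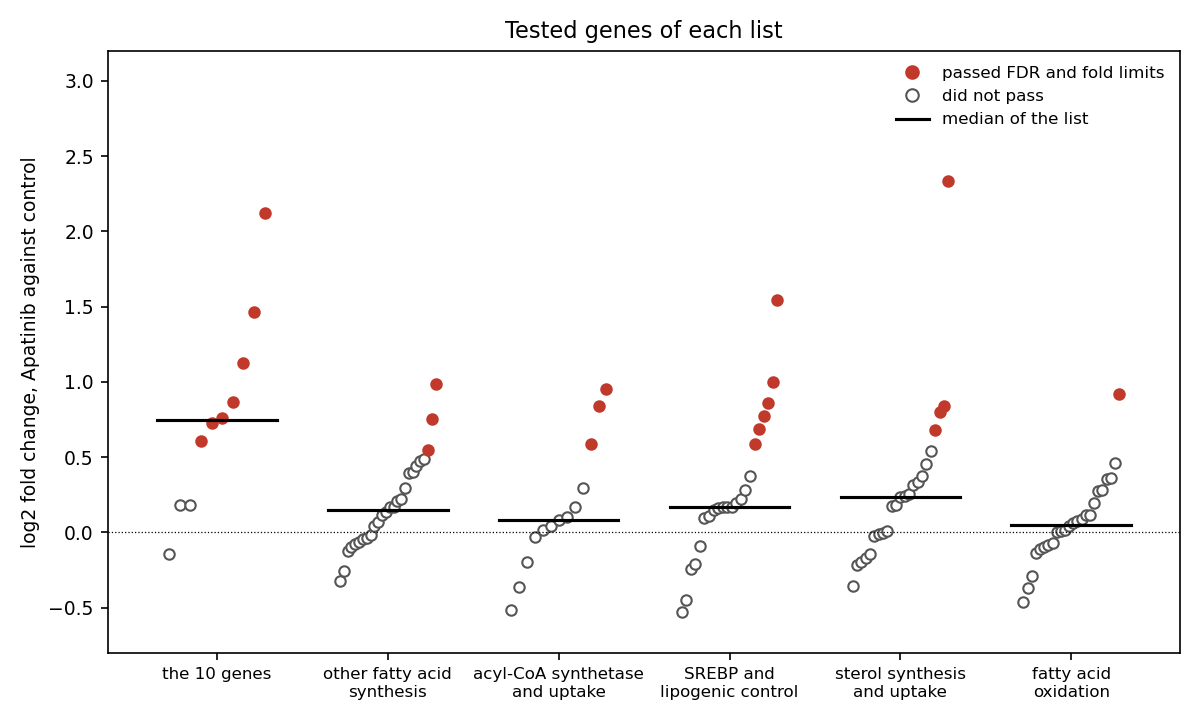
Log2 fold change of each tested gene in the 10 and in 5 lists of related genes, sorted within each list, with red points for genes that passed both limits and a bar at the median. The medians of the 5 lists lie between 0.05 and 0.23, and that of the 10 genes, which were chosen on these values, at 0.74. The 5 lists were also chosen with earlier results of these data known.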

How the data were processed

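RNA of 3 Apatinib and 3 control replicates, which the paper describes as biological, was sequenced. The authors deposited counts, whole numbers without normalization, for 57773 genes, and FPKM values for each library. Per the labels the reads were handled with CASAVA and STAR 2.7.1a on hg19. The counting program, its strand setting and the annotation are not given in the sources used here. In the file of Apatinib replicate 1, 1 further FPKM column carries the name of a control and was left out.

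The test was edgeR 4.0.16 in R 4.3.3 (filterByExpr, TMM, quasi-likelihood F test, Benjamini-Hochberg over 16290 genes). SE was the log2 fold change divided by the square root of F, and log2 CPM used a prior count of 2. Total counts per library were 17043314 to 22067558. The alternatives were DESeq2 1.42.0, RLE scaling, other filters on low counts, an FDR limit alone, a replicate block, limma 3.58.1 on log2-transformed FPKM (pseudocount 1 or 0.1), controls 1 and 2 summed, each replicate left out, and, added after the data were seen, a GC correction (loess, span 0.3, in GENCODE 29 identifiers).

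The 10 genes, the related lists and the marker lists were chosen with earlier results of these data known. Genes named are the 10, those called on a list, the 3 with the smallest p of the oxidation list and the 5 most like SCD. Some genes called on a list are not reported here. IDH1 and PRKAA1 were named after their values were seen. No pairing by replicate number was found. The correlations of deviations across genes were -0.259, 0.0808 and -0.22.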

Additional observations from a re-analysis of the deposited data

How the results depend on the processing

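The number called over all genes was 796 (5.03%, 556 higher) with limma on log2(FPKM + 1), 810 (5.12%, 578 higher) on log2(FPKM + 0.1), 292 (1.75%, 207 higher) with controls 1 and 2 summed, and 275 to 2594 when single replicates were left out. With the controls summed, 1 other synthesis gene, 0 uptake genes (3 at an unadjusted p under 0.05 in edgeR), 1 control gene, 2 sterol genes and 0 oxidation genes (2 at an unadjusted p under 0.05) were called, and limma called 1 uptake gene on either scale. Leaving out single replicates gave 1 to 5, 0 to 3, 0 to 8, 2 to 8 and 0 to 3 for these lists, and 5 to 7 for the 10 genes, in fits that called 1.65% to 15.5% of all genes. The replicate block, for numbers that did not pair the samples, gave 2215 genes (13.6%), 7 of the 10, and 3, 3, 7, 5 and 1 on the lists. The called genes of the 10 and of the lists named here kept their sign under each alternative that fitted them (ACACA was not in the GC fit, and the cell type markers and FEN1 were not followed), but most calls on the lists were lost without control 1 or 2, and those of ACSS2, INSIG1, SREBF2, SLC27A5 and CPT1C also without Apatinib replicate 1. CPT1C was lost without Apatinib replicate 3 too (edgeR FDR = 0.0586), and SLC27A5 without Apatinib replicate 2 (edgeR FDR = 0.0501) or control replicate 3 (edgeR FDR = 0.0564). The cause was not tested. Among the 10 genes, ME1 had the fewest counts, with 395 to 657 per library, and SLC27A5 on the lists had 23 to 63.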
